A study of Mus musculus with 34 samples.

Results

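The islands described here belong to 10 genes for transcription factors that direct the formation of blood cells: Runx1, Runx3, Tal1, Lyl1, Lmo2, Sfpi1, Cebpa, Gfi1, Ebf1 and Tcf7. They were chosen by name alone. Every probe of the array that carries one of these gene names was taken, and probes with gaps of at most 500 bases were joined into islands of at least 3 probes. This gave 20 islands with 164 probes, out of 13614 islands scored in the series, and every island was scored on all 34 arrays. Some arrays lack some of these probes, and their scores average the rest. No probe with one of these names was left over.

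Runx1 is needed for the emergence of blood stem cells from endothelium, and Runx3 for the development of CD8 T cells and natural killer cells. Tal1 and its close relative Lyl1 are basic helix-loop-helix factors that work in a complex held together by Lmo2. Sfpi1, the older name of Spi1, encodes PU.1, which with Cebpa directs the myeloid lineages, Gfi1 is a repressor that is required for neutrophils and for the restraint of stem cells, Ebf1 specifies B cells and Tcf7 encodes TCF1 of T cells. CpG islands at the starts of genes are usually free of methylation in normal cells, whereas islands inside genes can be methylated in a way that depends on the tissue. In bulk DNA, the share of cells that carry methylation and the extent of methylation in each cell cannot be told apart.

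RefSeq windows of GRCm38.p6, from 250 bases before to 50 after a start, were matched by symbol for 8 of the 10 genes, 14 windows in all. The windows shown first are those of 4 genes whose islands near the start were highest in pancreatic cell lines, and that of Lyl1 is shown as a start beside which the island had scores above 0 on 33 of the 34 arrays. Capitals mark the CpG sites.
Runx3, chr4:135152295-135152594, plus strand: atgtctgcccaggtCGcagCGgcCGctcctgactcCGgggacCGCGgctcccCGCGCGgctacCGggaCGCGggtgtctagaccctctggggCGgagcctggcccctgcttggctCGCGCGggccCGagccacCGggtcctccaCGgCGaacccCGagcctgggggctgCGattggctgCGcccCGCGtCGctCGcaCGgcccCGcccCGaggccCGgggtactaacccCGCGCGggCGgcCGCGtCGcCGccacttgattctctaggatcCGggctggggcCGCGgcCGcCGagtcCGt
Tal1, chr4:115057561-115057860, plus strand: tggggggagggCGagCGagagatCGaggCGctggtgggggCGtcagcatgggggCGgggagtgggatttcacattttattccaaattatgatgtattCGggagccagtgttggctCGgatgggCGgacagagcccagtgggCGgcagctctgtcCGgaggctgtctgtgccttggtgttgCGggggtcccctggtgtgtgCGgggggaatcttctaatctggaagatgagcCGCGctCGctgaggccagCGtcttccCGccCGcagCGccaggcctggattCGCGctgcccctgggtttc
Gfi1, chr5:107725756-107726055, minus strand: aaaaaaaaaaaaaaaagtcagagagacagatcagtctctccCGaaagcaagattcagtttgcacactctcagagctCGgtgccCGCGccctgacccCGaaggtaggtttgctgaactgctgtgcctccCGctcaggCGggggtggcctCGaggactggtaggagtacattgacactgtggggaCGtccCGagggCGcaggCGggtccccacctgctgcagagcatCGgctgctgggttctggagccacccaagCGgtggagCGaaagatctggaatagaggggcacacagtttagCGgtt
Cebpa, chr7:35119043-35119342, plus strand: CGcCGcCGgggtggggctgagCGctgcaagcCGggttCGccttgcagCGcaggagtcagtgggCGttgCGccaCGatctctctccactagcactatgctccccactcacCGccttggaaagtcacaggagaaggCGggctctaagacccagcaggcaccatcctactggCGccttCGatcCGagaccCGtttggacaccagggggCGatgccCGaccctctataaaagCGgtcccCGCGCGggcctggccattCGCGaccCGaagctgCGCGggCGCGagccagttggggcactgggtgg
Lyl1, chr8:84701207-84701506, plus strand: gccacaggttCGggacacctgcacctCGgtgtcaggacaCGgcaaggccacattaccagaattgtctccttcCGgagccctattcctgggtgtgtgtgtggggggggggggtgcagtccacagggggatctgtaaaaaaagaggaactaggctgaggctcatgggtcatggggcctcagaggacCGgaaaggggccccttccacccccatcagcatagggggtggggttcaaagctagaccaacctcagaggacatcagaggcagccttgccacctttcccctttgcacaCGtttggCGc

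The Runx3 window held 45 CpG sites in 300 bases, and only 1.93% of all 32851 RefSeq windows held as many or more. The Cebpa window held 29, the Tal1 window 22, the Gfi1 window 16 and the Lyl1 window 7, against a median of 7 over all windows. The Runx3 start lies 31900 bases after the upstream start of the same gene, inside the stretch of 31412 to 32525 bases that the probes of the island cover. The Gfi1 start shown lies at -1462 bases from the other RefSeq start of the gene. If the array counts from that other start, which the tables do not say, the start shown lies inside the island that spans -2525 to -300 bases. From which starts the array counts Tal1 and Lyl1 was not settled. The core motif of RUNX factors, TGTGGT on either strand, was found in 3 of the 14 windows and in 16.8% of all windows. It occurred at 2 places in the upstream window of Runx1 and at 2 in that of Runx3, and at 1 in a window of Ebf1. These matches describe the letters of the windows only.

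Methylated DNA immunoprecipitation (mDIP) precipitates sonicated, denatured DNA with an antibody against 5-methylcytidine, and the bound DNA (Cy5) was hybridised together with the input DNA (Cy3) to an Agilent CpG island array. By the methods all mouse DNA was from C57Bl/6. There were 16 arrays of adult tissue from mice of 3 months, with 2 arrays per tissue (spleen, kidney, liver, colon, pancreas, lung, muscle and brain), and 5 whole embryos were taken at 8.5, 9.5, 10.5, 11.5 and 12.5 dpc. The sexes on the labels differ between both arrays of a tissue for brain, kidney, liver, muscle and spleen, so that these come from different animals. For the others the labels do not say whether the arrays are from separate animals, and p-values measure the spread between these arrays. For undifferentiated ES cells there was a single array per line, of TT2, J1 and EB5. Differentiated ES cells made up 5 arrays: the line TT2 gave retinoic acid treated cells and embryoid bodies, and the line EB5 gave 2 arrays of endoderm and 1 of mesoderm. By the methods the endoderm and mesoderm came from a single reporter line made from EB5 and were sorted by Gsc and Sox17 after Activin. For the retinoic acid treated cells the methods name J1, whereas the label and a figure caption of the paper name TT2. The 2 teratomas were grown in NOD-SCID mice, which lack T and B cells, from J1 by the labels and from other lines by the methods. Ex vivo β cells, sorted with an antibody against insulin from the islets of Pdx1-GFP mice, and the tumour lines Min6 (β cells) and aTC (α cells) had 1 array each.

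The measure is the island methylation score (IMS). The authors' log10 ratio of bound over input was turned into a Z-score over all probes of an array, and the IMS is the mean of these over the probes of an island. An IMS of 0 is therefore the average probe of that array, and a difference of 1 is 1 SD of the probes. The input channel stood 3.07 to 7.34 times over its background (medians of the 34 arrays). Precision is limited by how many arrays a group holds.

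The labels were first set against the arrays themselves, since a comparison of spleen rests on them. Each replicate 1 array was expressed as its deviation from the mean of the 8 replicate 1 arrays, and each replicate 2 array likewise, over the 13594 islands of other genes. Colon matched its own label, with r = 0.427 across islands, whereas pancreas replicate 1 had r = 0.0768 with pancreas replicate 2 and was most like kidney replicate 2 (0.199). The other 6 replicate 1 arrays lie as pairs on 3 slides, and each of them was most like the replicate 2 array that bears the other label of its slide. The array labelled kidney replicate 1 was most like spleen replicate 2 (r = 0.565), and the array labelled spleen replicate 1 was most like kidney replicate 2 (0.267). Brain and liver (0.395 and 0.463) and lung and muscle (0.414 and 0.507) were crossed in the same way. With their own labels these 6 gave r of -0.250 to -0.0173. In the table of the authors, 5 of the 6 were crossed likewise. The exception there was spleen replicate 1, which had r = 0.267 with lung replicate 2 and 0.240 with kidney replicate 2. Pancreas replicate 1 was in that table most like pancreas replicate 2 (0.214), with kidney replicate 2 next at 0.210. Over the 1360 most variable islands scored here it had r = 0.368 with pancreas replicate 2 and 0.134 with kidney replicate 2. Islands of an array are not independent replicates, and these values carry no test. How the crossed pairs arose was not tested, and the correlations do not tell which array of a pair bears the label of its tissue. All arrays keep their deposited labels here, and no array was moved to another group. The adult arrays taken as 1 group are the same 16 whatever these labels.

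**Figure D1:**
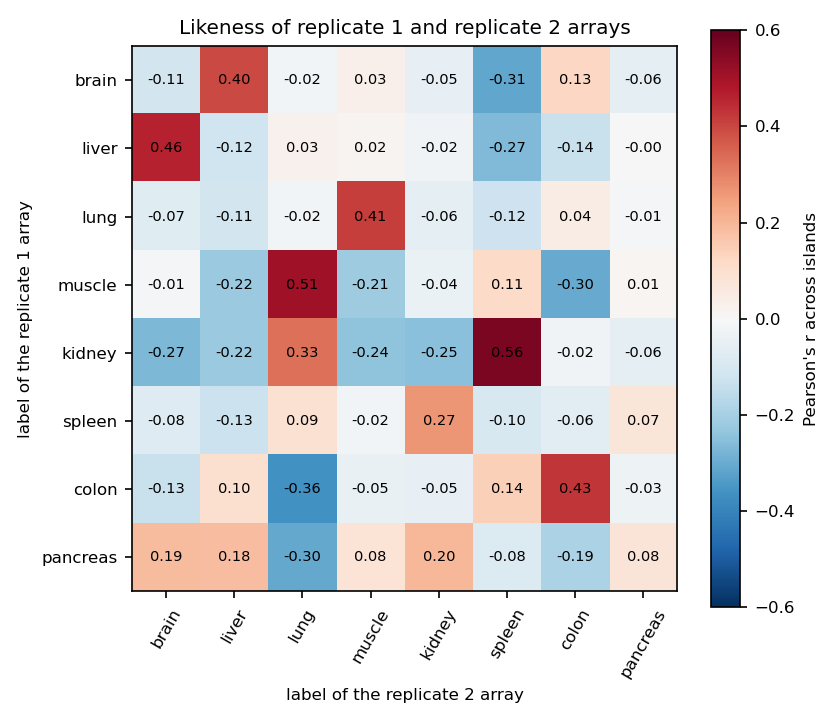
Pearson's r across 13594 islands between the deviations of the replicate 1 arrays (rows) and of the replicate 2 arrays (columns), by label. The high values lie off the diagonal for brain and liver, lung and muscle, and kidney and spleen, and on it for colon (0.427).

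The array labelled J1 also stood apart from its group. Over the same islands its deviations from the mean of all 34 arrays had r of -0.187 with EB5 and -0.200 with TT2, while EB5 and TT2 had r = 0.559 with each other. It was most like the array labelled pancreas replicate 2 (r = 0.678). It shared its scan day with the replicate 1 arrays of brain, kidney, liver, lung, muscle and spleen. Its scanner values had r = 0.113 with its column of the deposited table, against 0.894 to 0.991 on the other arrays. Results on undifferentiated ES cells are therefore given with and without it.

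Each island was read against the average probe of its array. The Z-scores were not adjusted for the melting temperature of the probes. Whether an island lies above or below 0 can therefore depend on its probes as well as on methylation. The mean over the 16 adult arrays was below 0 at the 3 islands that lie across a start (Runx1, Lmo2 and Cebpa) and at 2 of 3 that lie before a start, Tal1 and Gfi1, with Tcf7 at 0.0480. It was below 0 at 3 of the 12 islands inside genes and at neither of the 2 islands after the end of Lyl1. In all, 8 of the 20 islands (40%) had an adult mean below 0, against 71.0% of all 13614 islands. None of the 20 was below 0 on all 34 arrays, against 15.5% of all islands, and 4 were below 0 on all 16 adult arrays, against 29.8% of all islands. The SD over the adult arrays had a median of 0.326 for these islands and of 0.218 for all islands. It was above that of at least 96.1% of all islands at 5 of the 20, the far and the inner island of Runx1, that of Sfpi1, the far island of Gfi1 and the first island of Lyl1.

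**Figure D2:**
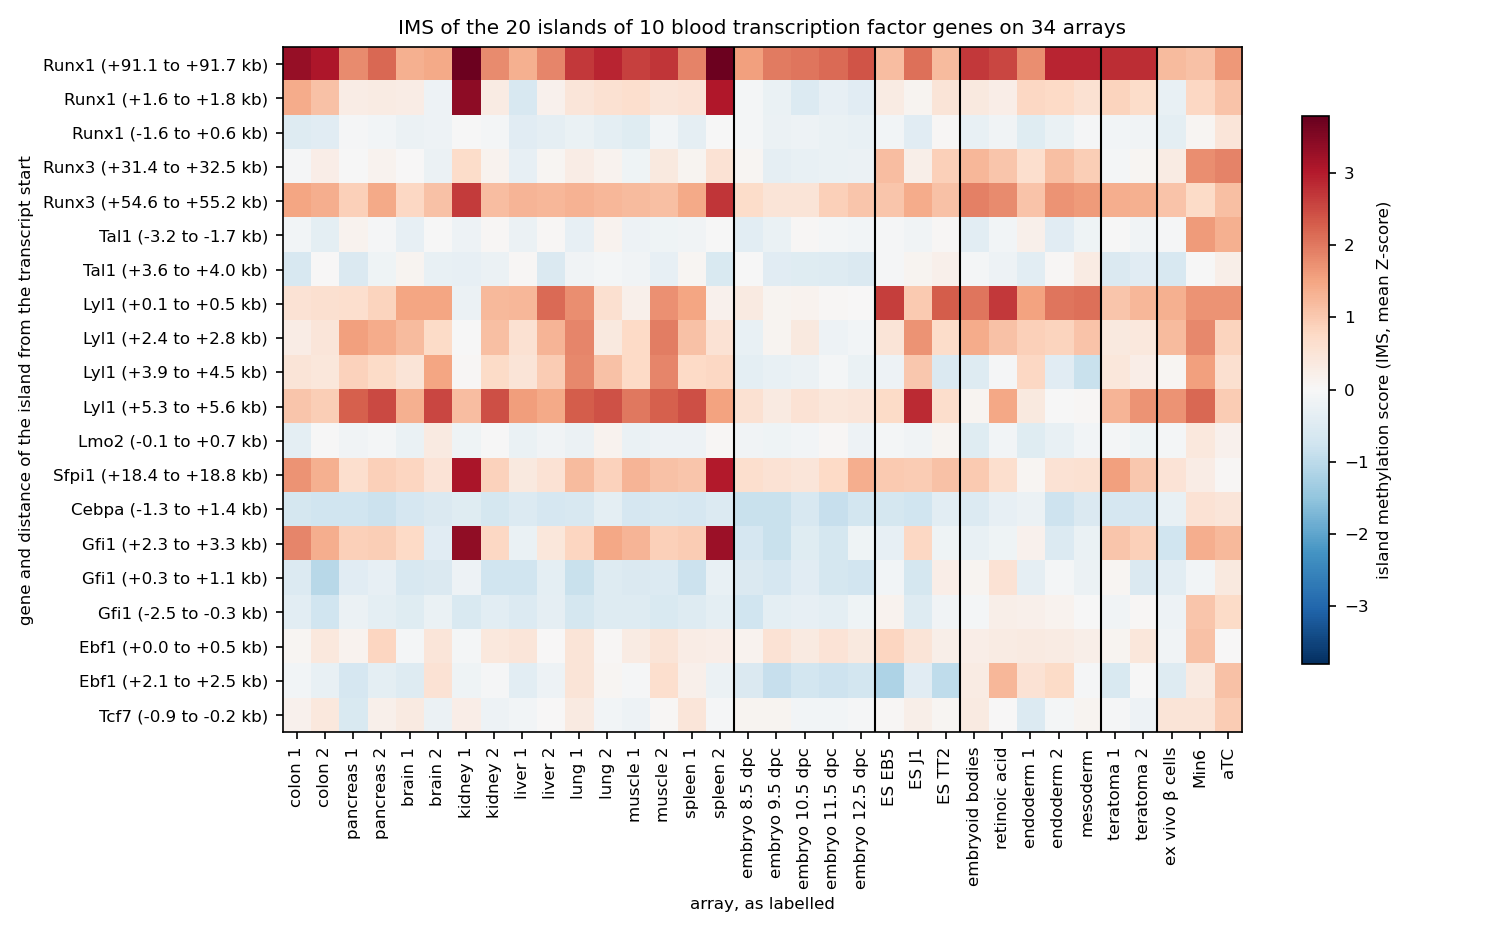
The IMS of each of the 20 islands (rows, with the distance of the probes from the transcript start in kb) on each of the 34 arrays (columns), in colour from low (blue) to high (red). The arrays labelled kidney 1 and spleen 2 are the darkest of the adult arrays at both inner Runx1 islands, Sfpi1, the far Gfi1 island and the far Runx3 island, and Min6 and aTC stand out at Tal1, Gfi1, Cebpa and Runx3.

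Spleen, the tissue richest in lymphocytes and myeloid cells among those measured, was compared with the mean of the 7 other tissues by the labels as they stand. None of the 13614 islands, 0%, had an adjusted p under 0.05 by limma with Benjamini-Hochberg adjustment, and so none of the 20. At an unadjusted p under 0.05 there were 252 of all islands (1.85%) and 1 of the 20, the far Runx3 island, where spleen had a mean of 2.08 and the other tissues 1.32. The median difference was 0.0531 for the 20 islands and -0.0191 for all. The methods' t-test gave 290 islands at an unadjusted p under 0.05, 0 of them among the 20, and 0 after adjustment. These counts put the arrays labelled spleen replicate 1 and spleen replicate 2, which had r = -0.0981 with each other across islands, into 1 group.

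The values by array show where this group parted. On the arrays labelled kidney replicate 1 and spleen replicate 2 the scores of 8 of the 20 islands (40%) were above all 14 other adult arrays, against 2.02% of all islands, and at 1 island, the first of Lyl1, both were below them, against 1.42%. The 8 islands belong to Runx1, Runx3, Sfpi1 and Gfi1. The gap to the nearest other array was only 0.0170 at the Gfi1 island just after the start and 0.00691 at the Runx1 island across the start. This pair was chosen after its values were seen, and the counts carry no test. On the arrays labelled spleen replicate 1 and kidney replicate 2, 0 of the 20 were above all 14 others, against 0.72% of all islands. Spleen minus kidney had opposite signs on the slide of the replicate 1 arrays and on that of the replicate 2 arrays at 17 of the 20 islands, and at 62.0% of all islands.

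Without the arrays labelled spleen replicate 1 and kidney replicate 1, spleen replicate 2 was higher than the mean of the other tissues at 5 of the 20 islands with an adjusted p under 0.05 by limma, and lower at 0. Of all islands 0.36% passed, 0.353% higher and 0.00735% lower. This choice of arrays was made after the values were seen, and the lone spleen array is assumed to vary like the arrays of other tissues. Without all 6 arrays of the 3 slides, 5 of the 20 were higher and 1 was lower, against 1.82% and 0.272% of all islands (2.09% in all). Without the arrays labelled spleen replicate 2 and kidney replicate 2 instead, none of the 20 had an adjusted p under 0.05 by limma, against 0.0147% of all islands, and 1 had an unadjusted p under 0.05, against 1.69%. Without spleen replicate 1 alone 0 of the 20 and 0 of all islands passed, with 5 of the 20 and 3.69% of all islands at an unadjusted p under 0.05.

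Runx1 carried the largest of these values. Its island 1554 to 1840 bases after the start (chromosome 16, 92584325 to 92584657, positions as in the files, 3 probes, inside the gene) had an IMS of 3.39 on the array labelled kidney replicate 1 and 3.03 on spleen replicate 2. The other 14 adult arrays ranged from -0.608 to 1.40, with a median of 0.391, and spleen replicate 1 had 0.507. Both arrays thus stood clear of every other adult array. Without spleen replicate 1 and kidney replicate 1 the difference of spleen from the other tissues was 2.63. This rests on 1 spleen array, and the kidney array left out had 3.39 here.

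The far Runx1 island, about 91 kb into the gene (92494487 to 92495082, 6 probes), had 3.74 and 3.71 on the same arrays. The others ranged from 1.34 to 3.31 with a median of 2.03, the highest of them colon with 3.31 and 3.07. The score was thus above the average probe here on every adult array. The difference without the pair of replicate 1 arrays was 1.51, with 1 spleen array left. The Runx1 island across the start (92585601 to 92587816, 17 probes) had -0.0103 and -0.0295 on these arrays, against -0.501 to -0.0365 on the 14 others, a gap of 0.00691.

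At Runx3 the island 54604 to 55237 bases into the gene (chromosome 4, 134447302 to 134447979, 6 probes) had 2.66 on the array labelled kidney replicate 1 and 2.72 on spleen replicate 2. The 14 others lay between 0.775 and 1.50. The difference without the pair of replicate 1 arrays was 1.51 there, with 1 spleen array left. At the island of the inner Runx3 start (134424110 to 134425267, 9 probes) the same arrays had 0.697 and 0.547, and the 14 others -0.317 to 0.359. That island did not pass the test in either setting.

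Among the myeloid factors, the Sfpi1 island 18360 to 18766 bases into the gene (chromosome 2, 90915973 to 90916423, 5 probes) had 3.11 and 3.00 on the arrays labelled kidney replicate 1 and spleen replicate 2. The 14 others had 0.372 to 1.70, with a median of 0.898, and spleen replicate 1 had 1.06. The difference without the pair of replicate 1 arrays was 2.07, with 1 spleen array left.

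Gfi1 has 3 islands, and they parted in adult tissue. The island 2291 to 3284 bases after the start (chromosome 5, 107961340 to 107962385, 9 probes) had 3.36 and 3.26 on these arrays, against -0.428 to 1.86 on the 14 others. The difference without the pair of replicate 1 arrays was 2.43, with 1 spleen array left. The islands before the start and just after it were low on all 16 adult arrays, at -0.754 to -0.237 and at -1.05 to -0.184. Cebpa, with 23 probes across its start (chromosome 7, 34826691 to 34829475), was low as well, at -0.824 to -0.357, and the arrays labelled spleen had -0.624 and -0.530.

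Lyl1 went the other way. Its island 94 to 466 bases after the start (chromosome 8, 87591633 to 87592049, 5 probes) had -0.220 on the array labelled kidney replicate 1 and 0.151 on spleen replicate 2, and the 14 others had 0.204 to 2.14 with a median of 1.24. The gap to the nearest other array was 0.0527, so that these arrays stood at the low end rather than apart. The difference of spleen from the other tissues was -1.06 in the absence of the 6 arrays and -0.976 in the absence of the pair. Each rests on 1 spleen array. The other 3 Lyl1 islands, at 2424 to 5632 bases, had adult means of 0.951, 0.868 and 1.89.

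Tal1, Lmo2, Ebf1 and Tcf7 had no island at which these arrays lay above all others. The Tal1 island before the start (chromosome 4, 114554236 to 114555811, 14 probes) ranged over adult tissue from -0.361 to 0.133, and that inside the gene (114560996 to 114561516, 5 probes) from -0.602 to 0.101. Lmo2 (chromosome 2, 103770895 to 103771799, 7 probes across the start) ranged from -0.370 to 0.342. Ebf1, the B cell factor, had 0.289 and 0.251 on the arrays labelled spleen at the island of its start (chromosome 11, 44461558 to 44462122, 5 probes), within the range of -0.0775 to 0.804 over adult tissue. Tcf7 (chromosome 11, 52126139 to 52126923, 7 probes before the start) had 0.454 and -0.0308 on them, the first being the highest of the adult range, which began at -0.568.

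**Figure D3:**
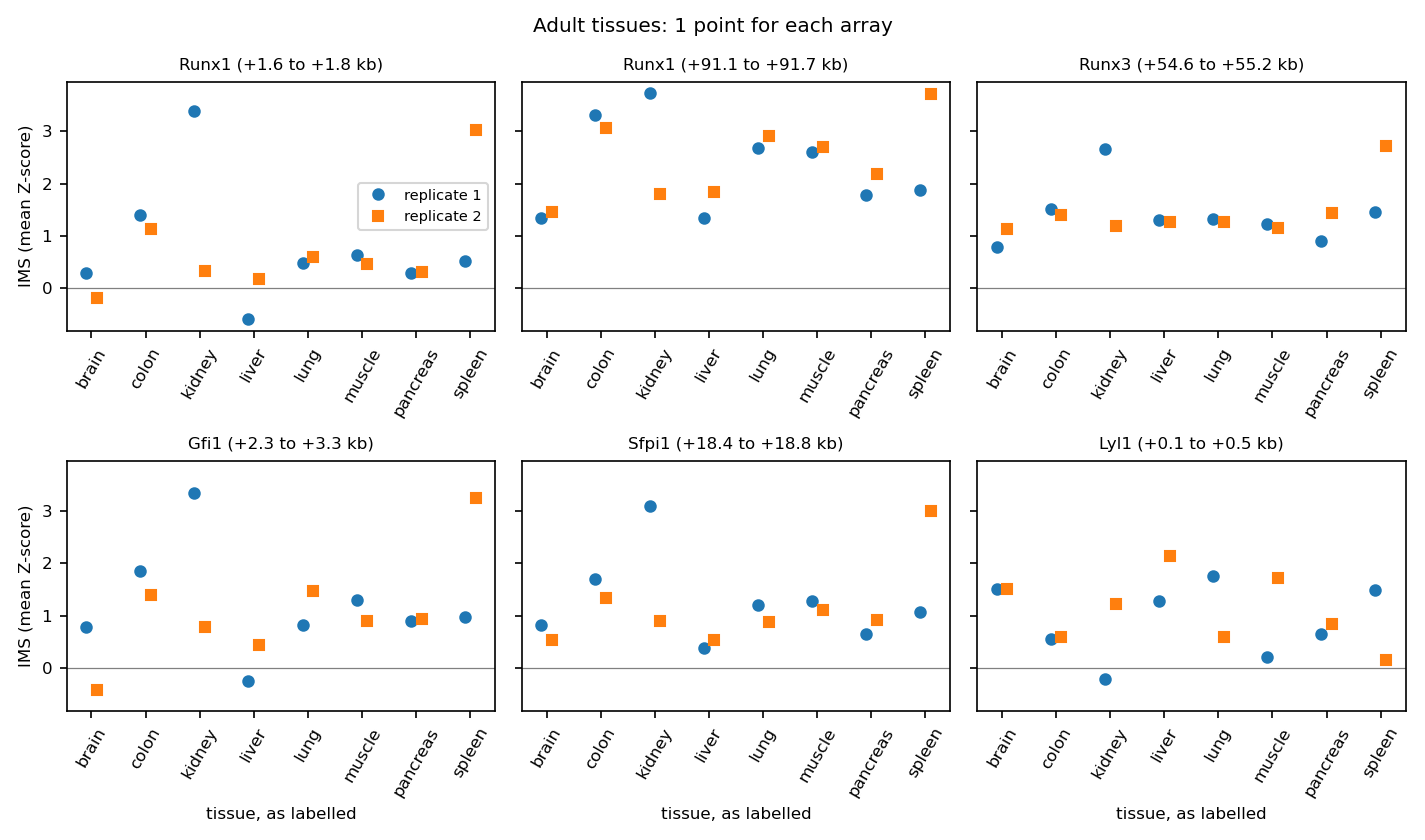
The IMS (vertical axis, mean Z-score) of 6 islands on the 16 adult arrays, 1 point for each array, with replicate 1 as circles and replicate 2 as squares over the tissue label. At the Runx1, Runx3, Gfi1 and Sfpi1 islands the high points are kidney replicate 1 and spleen replicate 2 (3.39 and 3.03 at the inner Runx1 island), and at Lyl1 they are the lowest.

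Embryos differed from adult tissue at these islands in 1 direction only. In 1 limma fit of adult tissue, embryos, both groups of ES cells and teratomas, 7 of the 20 islands were lower in the 5 embryos and 0 were higher. Of all islands 9.14% passed, 3.66% lower and 5.49% higher. The median difference was -0.350 for the 20 and 0.0367 for all islands. All 4 Lyl1 islands, the far Gfi1 and Runx3 islands and the inner Ebf1 island fell. Embryos and adult tissue share no slide and no scan day. With the slide or the scan day as a fixed block, where the link runs only through ES cells, the count was 0, against 0.022% and 0% of all islands, and with normexp background correction it was 0 too, against 1.26%. Without the embryo of 9.5 dpc or that of 11.5 dpc it was 4, against 5.43% and 6.05%.

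The island after the end of Lyl1 (87596847 to 87597218, 4 probes) had 0.567, 0.354, 0.563, 0.445 and 0.459 at 8.5 to 12.5 dpc, in that order. The 16 adult arrays had 0.937 to 2.54 with a median of 2.14, so that the groups did not overlap. The difference was -1.41 ± 0.297 (SE, adjusted p = 0.00216 by limma). The neighbouring island (87595390 to 87596110, 6 probes) had embryos at -0.383 to -0.0667 and adult tissue at 0.0546 to 1.87. These were the 2 of 20 islands at which embryos lay below all adult arrays, against 1.29% of all islands. At the first Lyl1 island the embryos had a mean of 0.126 ± 0.132 (SD, n = 5) and adult tissue 1.00 ± 0.674 (SD, n = 16), and its adjusted p of 0.0497 by limma was just under the threshold.

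The far Gfi1 island had -0.641, -0.853, -0.463, -0.657 and -0.169 from 8.5 to 12.5 dpc and an adult mean of 1.15 ± 1.02 (SD, n = 16). The difference was -1.71 ± 0.387 (SE, adjusted p = 0.00413 by limma). Of the adult arrays only brain replicate 2 at -0.428 and liver replicate 1 at -0.263 lay within the range of the embryos. The inner Ebf1 island (44463661 to 44464105, 4 probes) had embryos at -0.886 to -0.550 and a difference of -0.661 ± 0.181 (SE, adjusted p = 0.0176 by limma).

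Differentiated ES cells had 5 of the 20 islands higher than adult tissue and 3 lower in the same limma fit, against 14.7% and 9.06% of all islands (23.7% in all). The inner start of Runx3, the first island of Lyl1, both near islands of Gfi1 and the inner Ebf1 island rose. The far Gfi1 island and both islands after Lyl1 fell. The median difference was 0.0629 for the 20 and -0.0100 for all islands. On the slide that holds endoderm replicate 2 and pancreas replicate 1, all 8 had the sign of the group difference, and on that of embryoid bodies and brain replicate 2, 6 of the 8 had it. These arrays are part of the fit that made the calls, so that the signs are no independent check. With the slide as a block 4 of the 20 passed, 1 higher and 3 lower, against 15.1% of all islands. With the scan day as a block 6 passed, 2 higher and 4 lower, against 16.5%.

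The Runx3 island at the inner start, whose sequence is given above, had 1.27 in embryoid bodies, 1.06 after retinoic acid, 0.641 and 1.14 in endoderm and 0.945 in mesoderm. Adult tissue had -0.317 to 0.697, with the highest value on the array labelled kidney replicate 1. The lowest of the differentiated cultures, endoderm replicate 1, fell within the adult range and the other 4 lay above it. The difference was 0.892 ± 0.136 (SE, adjusted p = 1.07e-05 by limma). Against embryos, which had -0.353 to 0.0755, it was 1.22 ± 0.168 (SE, adjusted p = 5.03e-06 by limma).

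The Gfi1 island before the start (107964919 to 107967193, 18 probes) had -0.0687 in embryoid bodies, 0.230 after retinoic acid, 0.185 and 0.121 in endoderm and -0.0141 in mesoderm. All 5 lay above all 16 adult arrays, which had -0.754 to -0.237. It was the 1 island of the 20 with this property, which 2.51% of all islands had, and 0 of the 20 had all 5 cultures below all adult arrays, against 0.911%. The difference was 0.554 ± 0.0906 (SE, adjusted p = 2.91e-05 by limma), and even so the cultures only reached the average probe. The Gfi1 island just after the start (107963491 to 107964364, 8 probes) rose by 0.571 ± 0.137 (SE, adjusted p = 0.00251 by limma), from -0.565 to 0.00593. The far island of the same gene fell by 1.37 ± 0.387 (SE, adjusted p = 0.00942 by limma), to a mean of -0.217.

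Lyl1 showed opposite changes along its length. Its first island had 2.04, 2.69, 1.52, 2.03 and 2.09 in embryoid bodies, retinoic acid treated cells, both endoderm arrays and mesoderm, a rise of 1.07 ± 0.285 over adult tissue (SE, adjusted p = 0.00586 by limma). The last island had 0.115, 1.48, 0.373, -0.00815 and 0.0348 in the same order, and the difference was -1.49 ± 0.297 (SE, adjusted p = 0.000353 by limma). At the first island the cultures lay above the adult median of 1.03, and at the last the retinoic acid treated cells alone lay within the adult range.

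Between differentiated ES cells and embryos 8 of the 20 islands were higher in the cultures and 0 lower, against 12% and 9.67% of all islands (21.7% in all). The first and second islands of Lyl1, both Runx3 islands, both near Gfi1 islands, Cebpa and the inner Ebf1 island rose. At 8 of the 20 the 5 cultures lay above all 5 embryos, against 8.67% of all islands. These comparisons share the embryos and the cultures with those above. The largest differences were 1.95 ± 0.352 at the first Lyl1 island (SE, adjusted p = 0.000185 by limma) and 1.28 ± 0.223 at the inner Ebf1 island (SE, adjusted p = 0.000118 by limma). Cebpa differed by 0.290 ± 0.0954 (SE, adjusted p = 0.0280 by limma), with both groups below the average probe at -0.483 and -0.773. The groups share no slide and no scan day, and with the slide or the scan day as a fixed block 0 of the 20 passed, against 0.69% and 2.68% of all islands.

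Undifferentiated ES cells had 2 of the 20 islands called against adult tissue by limma, 1 higher and 1 lower, against 1.15% and 1.47% of all islands (2.61% in all). Without J1 there were 7, 4 higher and 3 lower, against 4.91% and 3.94% (8.85% in all). Without EB5 or without TT2 there were 0, and 0% of all islands passed there either. Without any 1 of 11 of the adult arrays there was 1, against 2.20% to 2.68% of all islands, the Ebf1 call being the lost one. The Runx3 island of the inner start had 1.17 in EB5, 0.208 in J1 and 0.914 in TT2. The difference from adult tissue was 0.644 ± 0.167 (SE, adjusted p = 0.0321 by limma) with J1 and 0.921 ± 0.178 (SE, adjusted p = 0.000714 by limma) without it. The inner Ebf1 island had -1.18, -0.428 and -0.963 in the same order, a difference of -0.793 ± 0.222 (SE, adjusted p = 0.0487 by limma) with J1 and -1.01 ± 0.259 (SE, adjusted p = 0.0116 by limma) without it. It was 1 of the 2 islands that passed here, and the differentiated cells had passed above adult tissue at the same island. The first Lyl1 island had 2.62, 1.00 and 2.31, and the value of J1 lay at the adult mean of 1.00. Without J1 the last 2 Lyl1 islands were lower, the first was higher and both near Gfi1 islands were higher.

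Teratomas had 0 of the 20 islands called against adult tissue by limma, against 0.191% of all islands (0.176% higher and 0.0147% lower), and 1 (5%) at an unadjusted p under 0.05, against 7.79%. The median difference was -0.0185 for the 20 and 0.0169 for all islands. At the Runx3 island of the inner start they had -0.0753 and 0.0817, within the adult range, and at the far Gfi1 island 1.07 and 0.894. The Gfi1 island before the start had -0.122 and 0.0427, above the highest adult array.

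**Figure D4:**
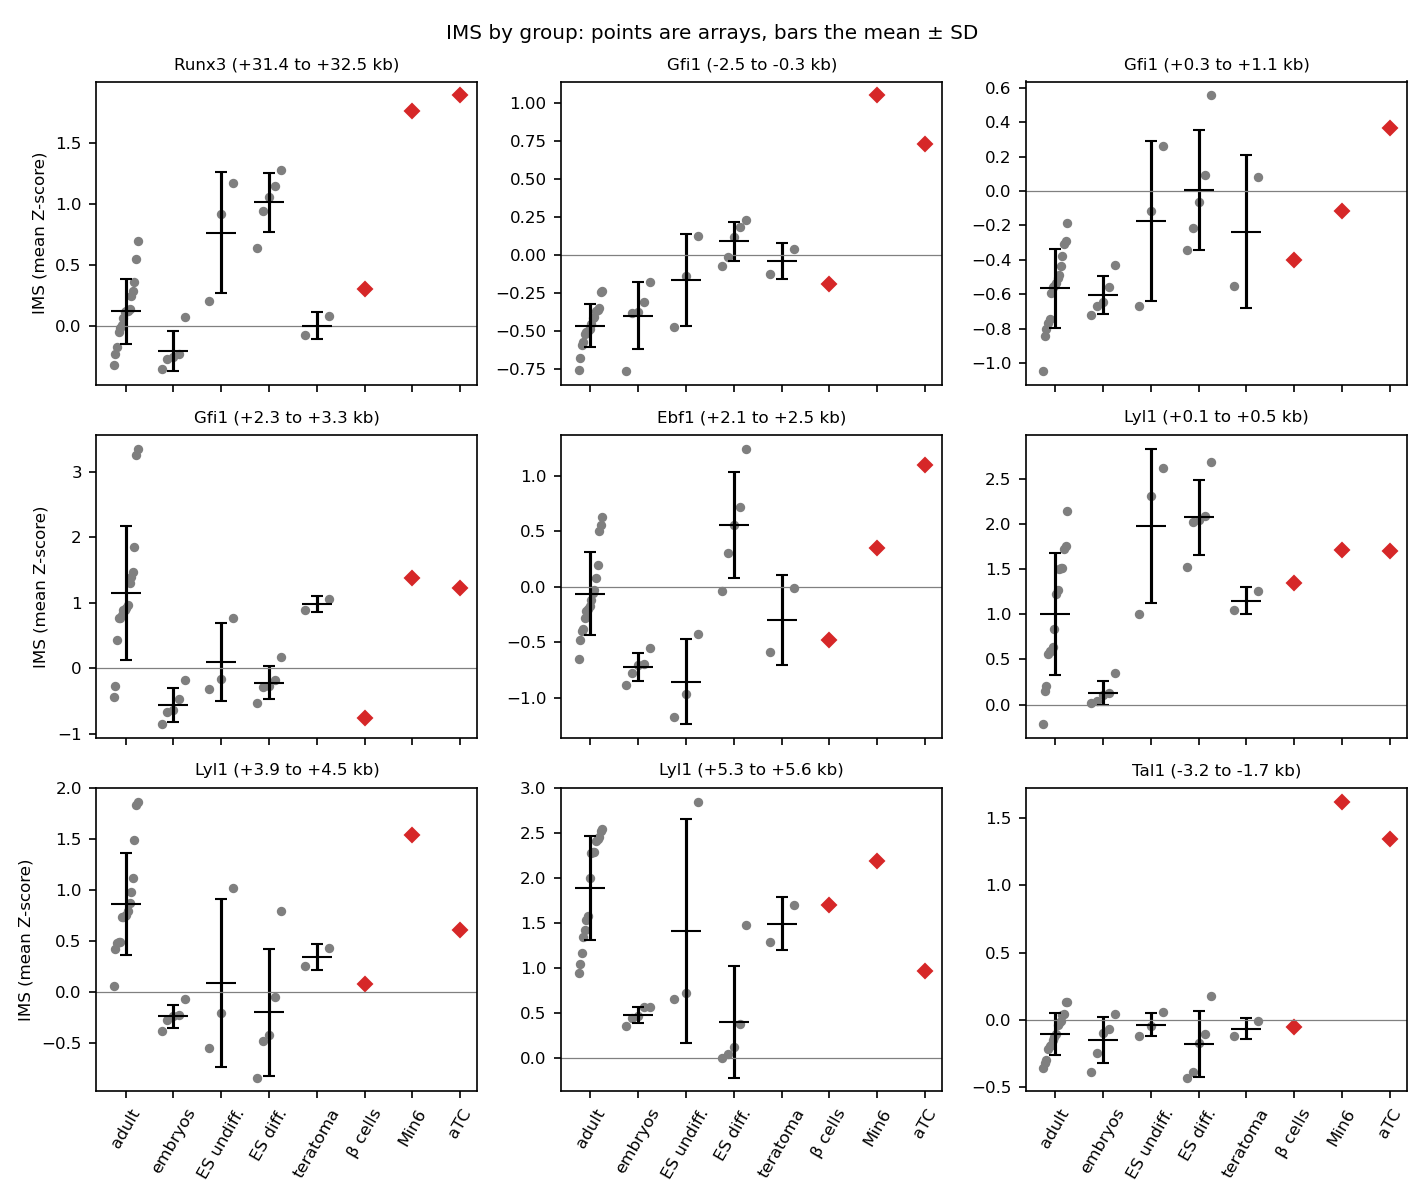
The IMS (vertical axis, mean Z-score) of 9 islands by group, with 1 point for each array and bars for the mean ± SD, and diamonds for the single arrays of ex vivo β cells, Min6 and aTC. The embryos lie low at the Lyl1, Ebf1 and far Gfi1 islands, the cultures are high at Runx3 and at the first Lyl1 island (mean 2.07), and the cell lines are high at Tal1 (1.62 and 1.35).

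The tumour lines Min6 and aTC had the highest scores of the series at several starts. These are single arrays, so that the values carry no test. At 5 of the 20 islands both lines were above all 32 other arrays, against 8.49% of all islands: Runx1 across the start, Runx3 at the inner start, Tal1 before the start, Cebpa across the start and Gfi1 before the start. At Tal1 the lines had 1.62 and 1.35, ex vivo β cells -0.0508, and the other 31 arrays -0.430 to 0.180. At the Runx3 island they had 1.76 and 1.89, ex vivo β cells 0.302, and the others -0.353 to 1.27. At Gfi1 they had 1.05 and 0.729 against -0.190 in β cells and at most 0.230 elsewhere. At Cebpa the lines had 0.535 and 0.469 against -0.281 in β cells and at most -0.235 elsewhere. At Runx1 they had 0.0699 and 0.450 against -0.370 in β cells and at most 0.0481 elsewhere, so that Min6 lay only just above the other arrays.

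Both lines were over 1 above ex vivo β cells at 4 of the 20 islands, against 4.64% of all islands, and over 1 below them at 0, against 2.5%. Beside Tal1 and Runx3 these were the inner Runx1 island, with 0.780 and 1.09 against -0.276, and the far Gfi1 island, with 1.38 and 1.23 against -0.752. Sfpi1 had 0.278 and 0.0404 in the lines, the second being the lowest of all 34 arrays. The lines share a slide that holds no other array and β cells lie on another, all scanned on 1 day, so that a difference between lines and β cells cannot be told apart from 1 between slides.

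**Figure D5:**
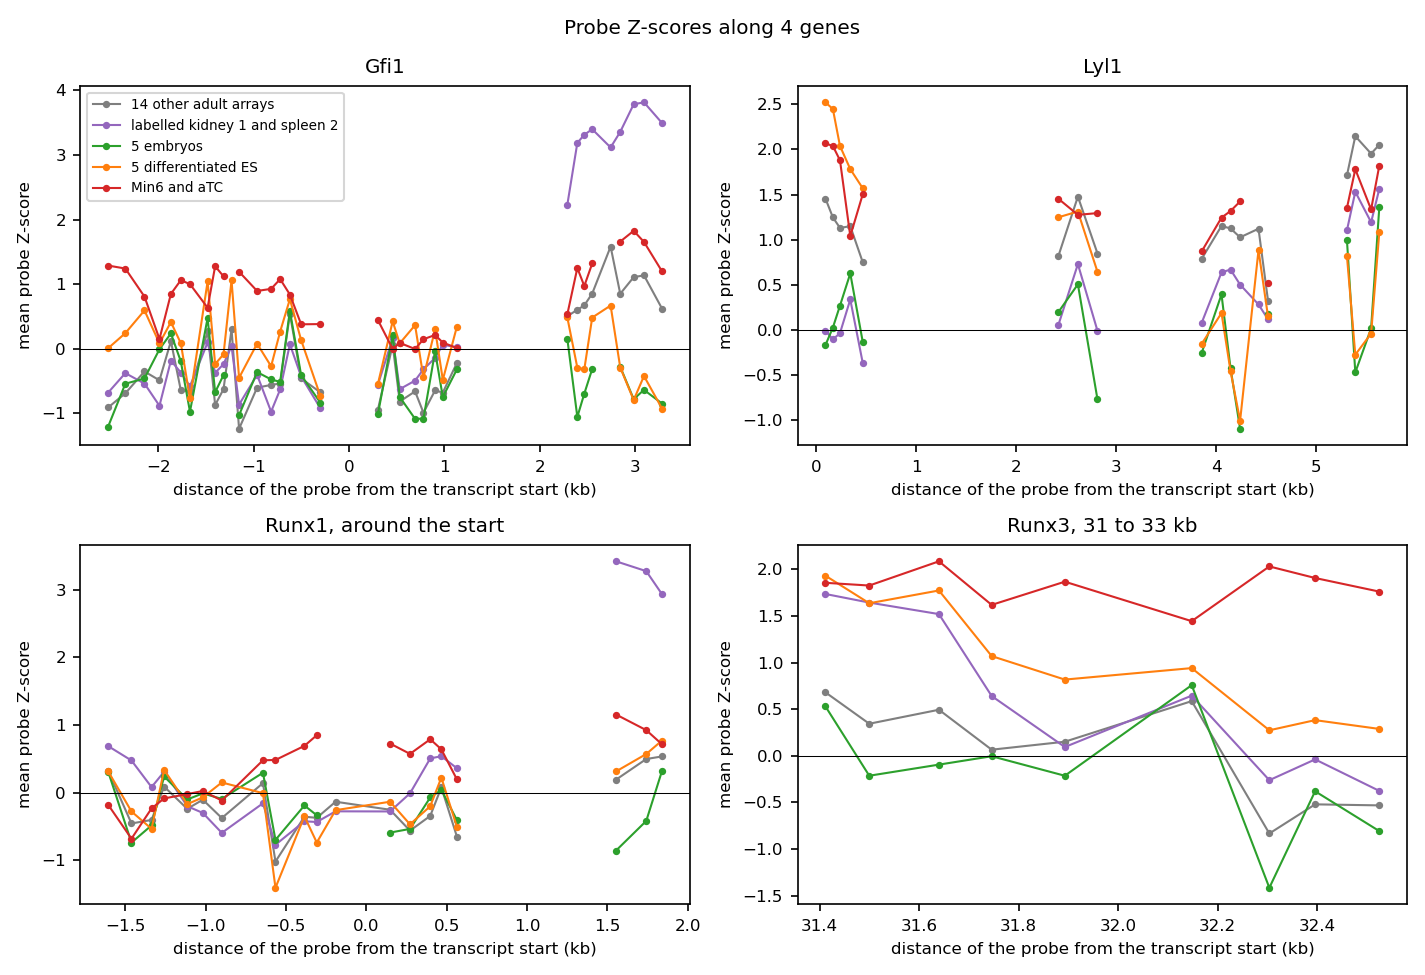
Mean Z-score of each probe (vertical axis) against its distance from the transcript start in kb for 4 genes, with 1 line for each group of arrays and gaps where a probe is missing on the smaller array. At the far end of Gfi1 the mean of the arrays labelled kidney 1 and spleen 2 lies above that of the 14 other adult arrays at every probe. At 2745 bases it is the value of kidney 1 alone. At the inner start of Runx3 all probes of Min6 and aTC lie above the average probe.

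Probes of an island did not always move together. The mean of the arrays labelled kidney replicate 1 and spleen replicate 2 was above that of the 14 other adult arrays at every probe in 6 of the 20 islands, below it at every probe in 7, and above it at some probes and below at others in 7. In the far Gfi1 island it was above at all 9 probes, and in the inner Runx1 island at all 3. Spleen replicate 2 lies on the smaller array, where some probes are missing, and there the value is that of kidney replicate 1 alone. This holds for the probe at 2745 bases in Gfi1 and that at 18680 bases in Sfpi1. In the Runx3 island of the inner start the cultures had 1.93 at the first probe and 0.288 at the last, while the lines had 1.85 and 1.76. Relative to the same probes in the 14 other adult arrays the cultures were higher by 0.354 to 1.29, at all 9 probes.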

How the data were processed

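Genomic and immunoprecipitated DNA of 34 mouse samples was hybridised to Agilent 2-colour arrays. The authors scanned them with Agilent Feature Extraction, and the deposited scanner files hold, per probe, the log10 of Cy5 (bound) over Cy3 (input) after background subtraction and linear dye normalization, together with the spot intensity in each channel. The authors also deposited a table of Z-scores, described as adjusted for the melting temperature of the probe, a filtered score used here as an alternative only. The aligner of probes and the genome build are not given in the sources used here. Positions and distances from starts follow the file of the array labelled endoderm replicate 1, since 6 arrays' files place 88424 probes elsewhere.

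The log10 ratios of each array were centred and divided by their SD, and these Z-scores were averaged over islands (gaps of at most 500 bases, at least 3 probes). Groups were compared with limma 3.58.1 (R 4.3.3) and Benjamini-Hochberg adjustment over 13614 islands at 0.05, and the scripts were tested on simulated data. The 5 embryo stages stand as replicates of 1 group. The genes, lists and tests were chosen with earlier results of these data known. All member islands and all islands of theirs that passed were named, and genes of 2 further lists were to be named only where they passed the spleen comparison by the labels, which none did. Those of these lists that are named in the closing section were chosen after their values were seen. Alternatives were the log2 ratio, the deposited table, normexp (offset 50), other island definitions, the methods' t-test, slide, scan day, sex and replicate terms, and leaving out arrays. The input was above background at 62.4% to 99.9% of probes, and 492 probes without coordinates were left out.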

Additional observations from a re-analysis of the deposited data

Results flagged for a closer look

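Of 40 groups of 5 arrays tested for a lone extreme value, 2 held one, and chance gives about 1 in 20. At the Tal1 island inside the gene the embryo of 8.5 dpc had an IMS of -0.00486, and the other 4 embryos had -0.553 to -0.437. At the last Lyl1 island the retinoic acid treated cells had 1.48, and the other 4 differentiated cultures had -0.00815 to 0.373.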

How the results depend on the processing

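The count of the 20 islands that passed for spleen was 0 under every setting run but 2 that leave out arrays in doubt. These were without spleen replicate 1 and kidney replicate 1, and without spleen replicate 1 and the 5 other adult arrays of its scan day. Both leave 1 spleen array. Without spleen replicate 1 and kidney replicate 1 the difference passed at the far and the inner Runx1 island (1.51 and 2.63), at Sfpi1 (2.07), at the far Gfi1 island (2.43) and at the far Runx3 island (1.51). Without spleen replicate 2 and kidney replicate 2 the difference reversed to -0.604 and -0.328 at the far and the inner Runx1 island, -0.192 at Sfpi1 and -0.236 at the far Gfi1 island. Without spleen replicate 2 alone it was -0.465, -0.109, -0.0339 and -0.0512. For differentiated ES cells against adult tissue the count of 8 became 4 with a slide block, against 15.1% of all islands. For undifferentiated ES cells the count of 2 became 0 with the log2 ratio, normexp, the methods' t-test and the groups alone. Of all islands 0.0294%, 0.0294%, 0% and 0.69% passed there. It was 0 too with slide, scan day and random scan day blocks, against 2.27%, 0% and 1.22%. The median of the probes gave 1, against 2.64%. At least 5 probes gave 1 of 15, against 2.25%, and the Ebf1 island of 4 probes was not scored there. Probes well above background gave 1 of 16, against 3.125%. The deposited table gave 6 of 13, and 27.3% of all islands passed there. For embryos the count of 7 became 3 of 13 in the deposited table, against 8.45% of all islands. It was 0 with normexp, slide and scan day blocks, against 1.26%, 0.022% and 0%. With at least 5 probes it was 4 of 15, against 9.83%, and the called islands of 3 or 4 probes were not scored there. A random slide block gave 4, against 4.91%, and a random scan day block 2, against 3.87%. The Lyl1 island at 3857 to 4519 bases then gave 0.00401 with a scan day block. For cultures against embryos the count of 8 became 5 with the log2 ratio and 5 of 13 in the deposited table, against 19.8% and 20.2% of all islands. It was 4 with normexp, against 5.26%, and 0 with slide and scan day blocks, against 0.69% and 2.68%. The cause was not tested. Leaving out 1 array at a time gave 0 to 0 for spleen, 7 to 8 for differentiated and 0 to 7 for undifferentiated ES cells, 4 to 7 for embryos, 7 to 8 for cultures against embryos and 0 to 0 for teratomas. For undifferentiated ES cells 0% of all islands passed where the count was 0, and 8.85% where it was 7. Of the single islands' alternatives 775 kept direction and call, 138 lost and 10 gained the call and 9 reversed.

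With a replicate block 0 islands passed for spleen and 0 for teratomas, among the 20, with the same calls as without it. Over all islands the teratoma count was 54 with the block and 26 without it. Deviations of same-numbered arrays had r of -0.253 to 0.629 over 28 pairs, 14 of them over 0.1, and 6 of the replicate 1 arrays share a scan day. The deviations were taken from the mean of the arrays of each tissue label, and 6 replicate 1 arrays were most like another label. These r can therefore not decide on pairing, and the numbers were not taken as pairs. Slide and scan day blocks over all tissues could not be fitted for spleen and teratomas, and normexp was run on median signals, since some files hold no mean signals.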

Other observations

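A pair of lists of other genes was set beside these islands. Of 123 islands of 73 further genes for blood transcription factors, 5 (4.07%) were higher on the arrays labelled kidney replicate 1 and spleen replicate 2 than on all 14 other adult arrays, and of 25 islands of 19 leukocyte genes 4 (16%), against 2.02% of all islands. Both arrays were below all 14 others at 1 of the 123 islands (0.813%), that of Tcf12, and at 0 of the 25, against 1.42% of all islands. The mean IMS of the 123 islands was -0.00202 on kidney replicate 1 and 0.108 on spleen replicate 2, against -0.0537 to 0.0879 on the other adult arrays. For the 25 islands it was 0.367 and 0.492, against 0.263 to 0.435. The genes named next were chosen after their values were seen, from islands where both arrays were higher. Pax5, which holds cells in the B lineage, had 1.16 and 1.64 against -0.540 to 0.676. Fli1, an ETS factor of blood and endothelium, had 3.10 and 3.14 against 0.681 to 2.29, and Gata2, a factor of blood stem cells, 2.27 and 2.23 against 0.415 to 1.55. Cd37, a leukocyte tetraspanin, had 2 such islands, with 2.46 and 2.36 against 0.455 to 1.76 at the first. Without the arrays labelled spleen replicate 1 and kidney replicate 1, spleen replicate 2 differed from the other tissues by 1.77 at Pax5. The median difference there was 0.0109 for the 123 islands and 0.0665 for the 25, against -0.0190 for all islands. Without spleen replicate 1 and the 5 other adult arrays of its scan day, the difference was 1.80 at Pax5 and 2.00 at Fli1. Gata3 and Gata2 had 1.42 and 1.36 there, and the Cd37 islands 1.19 and 0.983. The median was then -0.0211 for the 123 islands and 0.0946 for the 25, against -0.0277 for all islands. Both settings leave 1 spleen array, and these islands were picked by their values. By the labels as they stand 0 islands of either list passed, with 3 and 0 at an unadjusted p under 0.05.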
